A study of Homo sapiens with 7 samples.

Results

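Described here are 6 genes of secreted stress hormones and growth factors, through the ATF4 and MYC peaks around them in DLD-1 cells, an established line of human colon adenocarcinoma. They are FGF21, GDF15, VEGFA, EREG, AREG and ADM2, 6 of 20037 annotated coding genes. A peak was assigned to one of them when its centre lay inside the gene span of GRCh38 or within 10 kb of it, and within 150 kb for VEGFA. That rule took 40 of the 37164 peaks in 6 lists. The genes and the wide VEGFA window were chosen with peak positions and tag counts of these libraries known, so those values are given as a description and without a test.

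All groups carried MycER, delivered by retrovirus, in which MYC is joined to a hormone-binding domain and is switched on by 4-hydroxytamoxifen (4-OHT). Chromatin immunoprecipitation followed by sequencing (ChIP-seq) was made with an ATF4 antibody in cells given 4-OHT for 8 hr (2 libraries, activated), with a MYC antibody in such cells (2 libraries), and with the ATF4 antibody in control cells given vehicle (2 libraries). An IgG sample of activated cells is labelled too, and its own peaks were not analysed here. The inducer dose was 500 nM, no group had 4-OHT without MycER, and MYC ChIP of vehicle-treated cells was not analysed here. The MYC antibody is not stated to tell MycER from the cells' own MYC, and the labels do not say whether replicates were separate cultures, so any spread between them may be technical. Peak lists of transcription factors hold no expression values, so neither the cell type nor the amount of any hormone was checked.

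ATF4 is the transcription factor that is translated when kinases of the integrated stress response phosphorylate eIF2alpha, and with C/EBP partners it binds a composite site in genes of amino acid supply and stress. MYC with its partner MAX binds E-boxes at many promoters of growth genes. FGF21 and GDF15 are hormones that cells release under mitochondrial and amino acid stress. FGF21 acts through FGF receptors with the co-receptor beta-klotho (KLB), and GDF15 acts through GFRAL and RET in the brainstem. VEGFA is the main growth factor of blood vessels. EREG (epiregulin) and AREG (amphiregulin) are ligands of the EGF receptor family, made by colon epithelium and colon tumours, and lie side by side on chromosome 4. ADM2 (adrenomedullin 2, intermedin) is a peptide of the calcitonin family that acts through CALCRL with RAMP proteins.

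The sequence that carries the clearest finding is the FGF21 promoter. All ATF4 libraries had a peak over it, and the part under the peak of activated replicate 1, up to the base before the gene's start, is printed from the RefSeq promoter table (GRCh38.p14, plus strand), with a match to the ATF4-C/EBP composite TGATGCAAT, here on the opposite strand, in capitals. For comparison the EREG promoter is shown under its ATF4 peak, which was listed in activated replicate 2 and in no other library and holds no such match, and the AREG promoter, which has a cAMP response element (TGACGTCA, in capitals) and no peak of either factor. They lie at chr19:48755364-48755523, chr4:74364951-74365144 and chr4:74445031-74445135.
FGF21: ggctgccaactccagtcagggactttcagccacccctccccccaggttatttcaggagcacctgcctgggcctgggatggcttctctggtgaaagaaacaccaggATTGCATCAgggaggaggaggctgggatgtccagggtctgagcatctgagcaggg
EREG: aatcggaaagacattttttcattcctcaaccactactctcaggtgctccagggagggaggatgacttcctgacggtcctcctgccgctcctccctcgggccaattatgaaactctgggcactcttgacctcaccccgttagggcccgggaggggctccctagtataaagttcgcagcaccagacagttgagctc
AREG: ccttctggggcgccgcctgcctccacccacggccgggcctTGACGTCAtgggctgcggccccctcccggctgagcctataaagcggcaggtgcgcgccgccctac

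Promoters of 5 of the 6 genes were in that table, VEGFA being the one left out. The 8-letter core TGATGCAA, searched on both strands in 300 bases (250 before and 50 after the start), was found in the FGF21 promoter and in 106 of 15843 promoters (0.669%), and the 9-letter form TGATGCAAT, which contains the core, in 28 (0.177%). TGACGTCA was found in the AREG promoter and in 411 promoters (2.59%). CACGTG, the E-box, was found in 1407 promoters (8.88%) and in none of these 5. A match says only that the letters are there. The FGF21 match lies at bases 48755469 to 48755477 of chromosome 19, with its middle 51 bp before the gene's start.

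The libraries of replicate 1 held 21.04 to 24.95 M tags and those of replicate 2 held 49.77 to 50.3 M, so the same signal rests on more reads in replicate 2. Signal is the authors' normalized tag count, tags in a peak per 10 M tags of the library, and is called tags below. Listed peaks were wider in replicate 2 than in replicate 1 of each group. At FGF21 the ATF4 peaks were 171 and 205 bp wide in activated and 185 and 213 bp wide in control replicates 1 and 2. The part of peak width in the tags was not tested. The lists held 1270 and 2231 ATF4 peaks in activated replicates 1 and 2, 8636 and 22532 MYC peaks, and 916 and 1579 ATF4 peaks in control replicates 1 and 2. The lowest value listed was 3.21 and 2.81 tags in ATF4 activated, 3.8 and 2.39 in MYC, and 4.46 and 2.98 in ATF4 control, and a weaker site has no value. For each factor, peaks sharing 1 bp or more were joined into a region, with the strongest peak as a library's value.

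ATF4 had a region in both activated libraries at 3 of the 6 genes, FGF21, VEGFA and EREG, and in both control libraries at the same 3 genes. Among all coding genes such a region lay within 10 kb of 1.4% in activated and 0.524% in control cells, and within 150 kb, the VEGFA window, of 6.75% and 2.4%. The genes were chosen on these peaks, so nothing is read from the excess. Within 10 kb VEGFA had no ATF4 region, and 2 of 6 genes were left. In all there were 7 ATF4 regions, of which 4 were found in every ATF4 library and 3 in 1 library each.

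A region in every ATF4 library lay near 3 of the 6 genes, where 0.439% of coding genes had one within 10 kb and 2.03% within 150 kb. By single library, ATF4 peaks lay near 3 genes in activated replicate 1 (background 4.28% within 10 kb and 18.1% within 150 kb) and near 4 in activated replicate 2 (7.76% and 32.6%), which added GDF15. They lay near 3 genes in control replicate 1 (2.95% and 12.3%) and near 3 in control replicate 2 (5.37% and 23%). MYC peaks lay near 3 genes in replicate 1 (29.7% and 70.8%) and near 5, all but AREG, in replicate 2 (59.5% and 88.6%). VEGFA, with its wide window, held 24 of the 40 peaks, EREG 6, FGF21 5, GDF15 3 and ADM2 2.

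**Figure D1:**
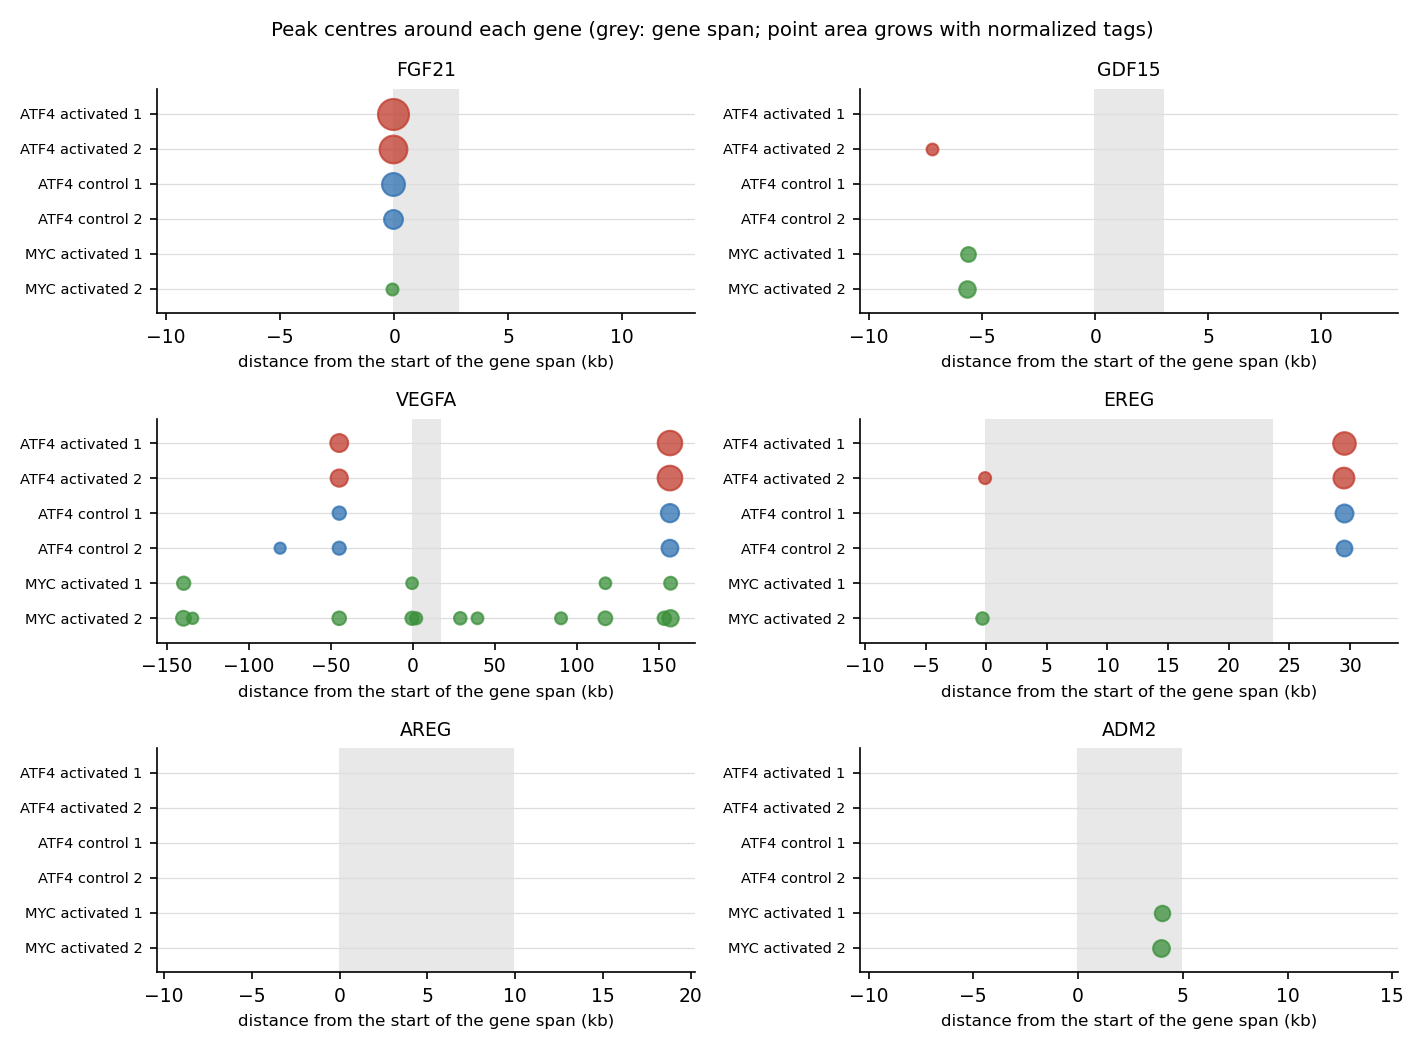
Position of every peak assigned to the 6 genes, as the distance of the peak's centre from the start of the gene span in kb, with 1 row per library, the gene span in grey and the point area growing with normalized tags. FGF21 has a stack of ATF4 points at its start, and VEGFA has its ATF4 points away from the gene. EREG has a stack of ATF4 points after the gene and a small ATF4 point of activated replicate 2 at its start. GDF15 and ADM2 have MYC points in both MYC libraries, and AREG has no point.

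At FGF21 the ATF4 region (chromosome 19, 48755347 to 48755568) had its centre 66 bp before the gene and 99 bp from FUT1, a fucosyltransferase gene read in the other direction, so a peak there cannot be assigned to 1 of the 2 promoters. ATF4 gave 42.5 and 33.6 tags in activated replicates 1 and 2 (106 and 167 reads), against 22.3 and 14.5 tags in control replicates 1 and 2 (50 and 73 reads). Both activated libraries were above both control libraries, and replicate 1 was higher than replicate 2 in either group. The means were 38.05 ± 6.29 tags in activated and 18.4 ± 5.52 tags in control cells (SD, n = 2 each), a ratio of 2.07, with 1.91 within replicate 1 and 2.32 within replicate 2. By mean tags it was the region ranked 2 of the 352 with a peak in both activated libraries, whose median was 6.82 tags. The authors' fold over the background library was 45.99 and 29.05 in activated and 24.16 and 15.71 in control replicates 1 and 2, against a median of 5.21, 4.57, 4.64 and 3.44 over all peaks of these lists in that order.

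The composite match in the FGF21 promoter lay under the peak of all 4 ATF4 libraries. Its middle was 24 and 7 bp from the peak's centre in activated replicates 1 and 2 and 20 bp from it in each control replicate. MYC had a peak there in replicate 2 only, with 4.59 tags (23 reads, exact Poisson 95% interval 2.91 to 6.89 tags, counting error only). Its centre lay 70 bp from the middle of the match, on the FUT1 side, and its fold over background was 3.97, below the median of 7.78 for that list. MYC replicate 1 had no peak there, and the lowest value of its list, 3.8 tags, lies within that interval.

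**Figure D2:**
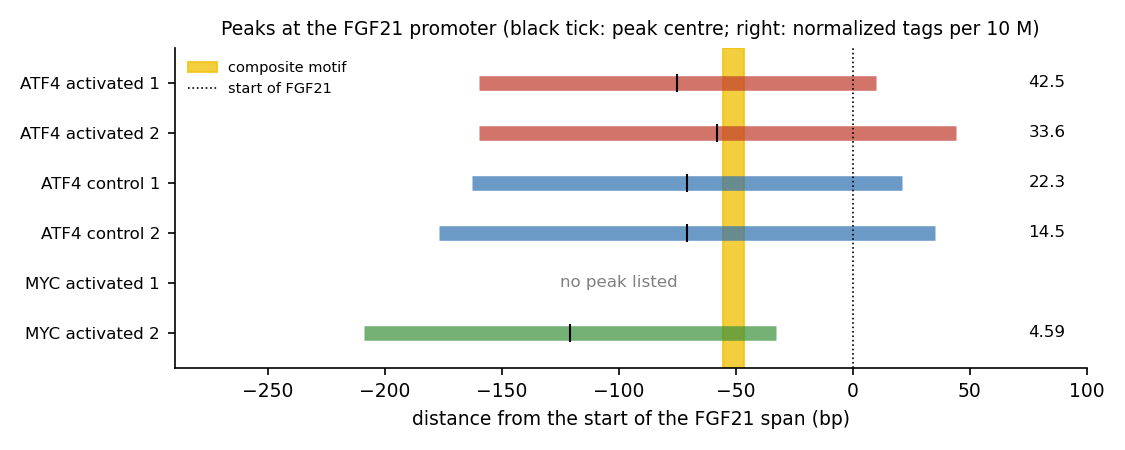
Extent of each peak at the FGF21 promoter, as distance in bp from the start of the gene, for the 6 libraries from top to bottom, with the peak centre as a black tick, the composite match as a yellow band, the gene start as a dotted line and normalized tags per 10 M at the right. The ATF4 peaks of all 4 libraries cover the match, with 42.5 and 33.6 tags in activated and 22.3 and 14.5 tags in control cells, and MYC has a peak in replicate 2 only, with 4.59 tags.

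VEGFA had 3 ATF4 regions in its wide window and none inside the gene, with before and after given by rising coordinates. The strongest (chromosome 6, 43926829 to 43927054) lay 140.5 kb after the end of the gene, inside the non-coding gene LINC01512, with VEGFA as the nearest coding gene and MRPL14, a mitochondrial ribosomal protein gene, 186509 bp away. ATF4 gave 25.7 and 26.1 tags in activated replicates 1 and 2, against 13.4 and 11.1 tags in control replicates 1 and 2. The activated libraries were close to each other and above both control libraries. The means were 25.9 ± 0.28 tags in activated and 12.25 ± 1.63 tags in control cells (SD, n = 2 each), a ratio of 2.11, with 1.92 within replicate 1 and 2.35 within replicate 2, and the region ranked 8 of 352 in activated cells.

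The other common VEGFA region (chromosome 6, 43725163 to 43725390) lay 44.9 kb before the gene, between VEGFA and MRPS18A, another mitochondrial ribosomal protein gene, which was nearer at 37485 bp. ATF4 gave 12.8 and 11.7 tags in activated replicates 1 and 2, against 6.25 and 5.96 tags in control replicates 1 and 2. The activated values were again above both control values. The means were 12.25 ± 0.78 tags in activated and 6.1 ± 0.21 tags in control cells (SD, n = 2 each), a ratio of 2.01, with 2.05 within replicate 1 and 1.96 within replicate 2, and its rank was 43 of 352. The remaining ATF4 peak in the VEGFA window, 1461 bp from MRPS18A, was listed in control replicate 2 only, with 3.78 tags. Just beyond the window, at 201.6 kb, activated replicate 1 alone had an ATF4 peak, with 4.41 tags.

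EREG had its common ATF4 region 5.9 kb after the gene (chromosome 4, 74394544 to 74394756), on the side of AREG, whose span begins 50486 bp further on. ATF4 gave 21.6 and 18.1 tags in activated replicates 1 and 2, against 12.9 and 9.54 tags in control replicates 1 and 2. Both activated libraries were above both control libraries, with replicate 1 the higher in either group. The means were 19.85 ± 2.47 tags in activated and 11.22 ± 2.38 tags in control cells (SD, n = 2 each), a ratio of 1.77, with 1.67 within replicate 1 and 1.9 within replicate 2, and the rank was 13 of 352. The fold over background was 46.86 and 26.1 in activated and 28.03 and 21.09 in control replicates 1 and 2. MYC had no peak at that region, and the nearest MYC region lay 29634 bp away at the EREG promoter.

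The EREG promoter had weak peaks of both factors, each in 1 library. ATF4 had 4.62 tags there in activated replicate 2 (23 reads, interval 2.93 to 6.93 tags) at a fold of 2.5 over background, and MYC had 5.19 tags in replicate 2 (26 reads, 3.39 to 7.6 tags). The peaks did not overlap, with 41 bp between them. AREG had no peak of either factor in its window. The nearest beyond it were an ATF4 peak of control replicate 2 between EREG and AREG, with 3.78 tags, and the region after EREG at 50.5 kb.

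**Figure D3:**
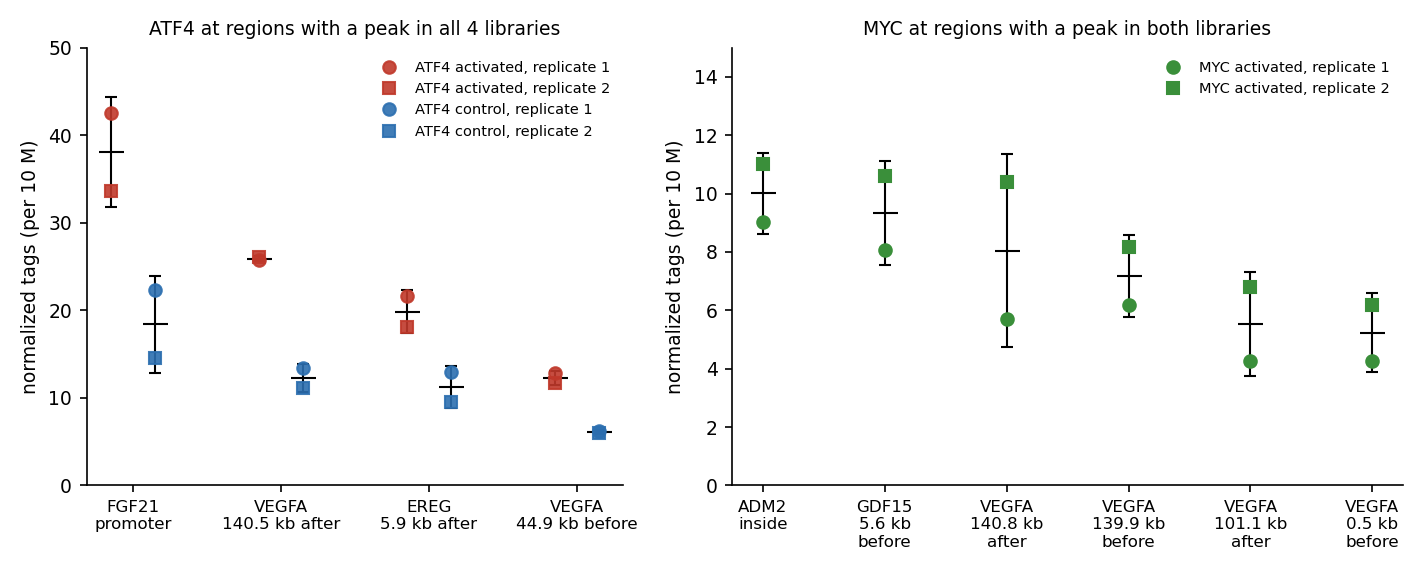
Normalized tags per 10 M in each library (points: circle for replicate 1, square for replicate 2; black line and bar: mean and SD, n = 2) at the ATF4 regions common to the 4 ATF4 libraries (left panel, activated left of control) and the MYC regions with a peak in both MYC libraries (right panel), with the position relative to the gene below. In all 4 ATF4 regions both activated points lie above both control points, and at all 6 MYC regions replicate 2 lies above replicate 1.

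Across the 105 ATF4 regions common to the 4 ATF4 libraries, the difference on log2(tags + 1), activated minus control, was fitted with limma, and those of the 4 regions are given as a description, since this contrast chose them. The difference was 1.03 with a standard error of 0.32 at FGF21, 1.03 ± 0.30 at VEGFA after the gene, 0.90 ± 0.29 at VEGFA before the gene and 0.78 ± 0.29 at EREG. They ranked 6, 7, 15 and 24 of 105 by size. Their median was 0.96, beside a median of 0.54 over all 105 regions, of which 77 (73.3%) had both activated above both control libraries and 39 (37.1%) were higher by limma with an adjusted p under 0.05. No region was removed from the 105 for lying in repeats or near a centromere, and how many do was not tested. None of the 105 was called lower (0%), adjusted or not. The 105 are part of the 352 regions in both activated and the 151 in both control libraries. A region without a peak in every ATF4 library did not enter the fit. Sites listed in only 1 of the groups could therefore be called neither higher nor lower. With the replicate number as a block, which also separates the shallower from the deeper libraries, limma called 0 higher (37 at an unadjusted p under 0.05, smallest adjusted p 0.115). That fit has fewer degrees of freedom. The differences at the 4 regions were unchanged in it. Their standard errors were 0.29 at FGF21, 0.20 and 0.24 at VEGFA after and before the gene, and 0.18 at EREG. On the reads recovered from the tags, an alternative chosen after seeing the data, edgeR's quasi-likelihood test called 52 higher (49.5%) without that block and 35 (33.3%) with it. With any 1 library left out limma called 0 higher, and 24 to 47 at an unadjusted p under 0.05. With each library centred on its median over the 105 regions it called 0 higher and 9 lower. On the authors' scale 95 of the 105 differences were above 0. With that centring the median difference moved to -0.11 and the 4 regions had 0.38, 0.38, 0.25 and 0.13 in the same order, with standard errors of 0.22, 0.23, 0.25 and 0.23. Without control replicate 2 FGF21 had 0.74 and without control replicate 1 it had 1.32, and the other 3 regions ranged from 0.58 to 1.15 as each library was left out.

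**Figure D4:**
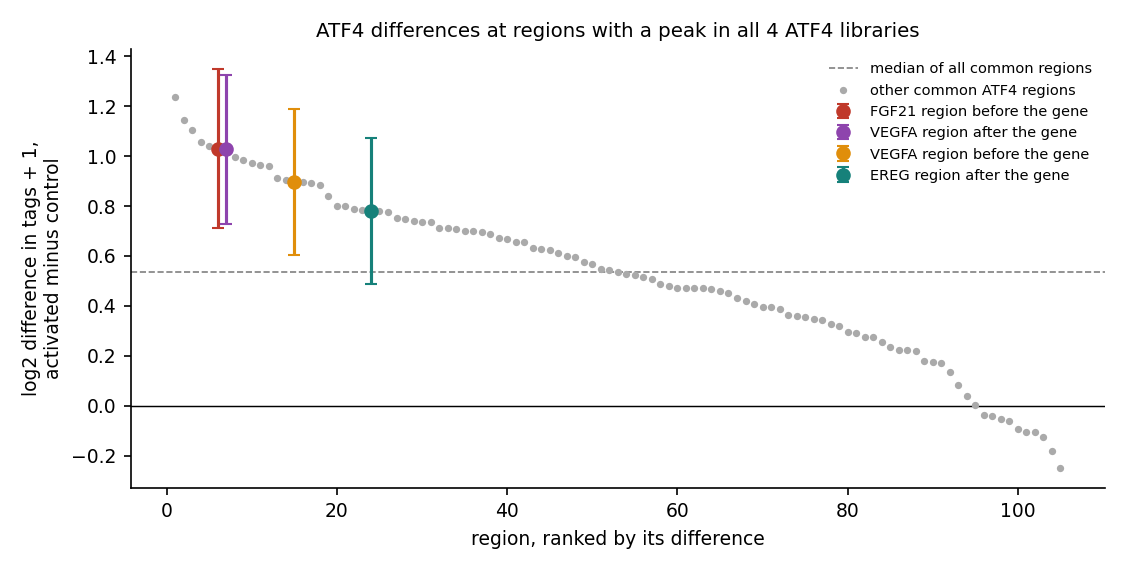
Log2 difference in tags + 1, activated minus control, for the 105 common ATF4 regions, ranked from the largest, with the 4 regions of FGF21, VEGFA and EREG in colour (bars: standard error from limma) and the median of all regions, 0.54, as a dashed line. The coloured points lie at ranks 6, 7, 15 and 24, among other regions of like size.

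The regions whose ATF4 values over the 4 libraries were nearest to these 4 (Euclidean distance on log2(tags + 1), 105 regions) were named by their nearest coding gene. For FGF21 they lay inside TBC1D16, a GTPase regulator, at a distance of 0.4 (33.7 and 34.4 tags in activated, 21.4 and 17.1 tags in control cells), and inside SLC43A1 and SLC7A5, carriers of large neutral amino acids, at 0.41 and 0.44. For the VEGFA region after the gene they lay at CHAC1, a glutathione-degrading enzyme, at 0.22 (28.5 and 24.3 tags in activated, 14.3 and 10.3 tags in control cells), inside NRL at 0.51 and 2131 bp from HSPA5, the main endoplasmic reticulum chaperone, at 0.57. The VEGFA region before the gene was nearest to regions by ISL2 (0.22), GNLY (0.26) and VLDLR (0.29), and that of EREG to regions inside GSE1 (0.24), NRL (0.28) and KIF21B (0.43). These points share their 4 libraries, so the distance is a description.

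GDF15 had no ATF4 region in both libraries of a group. It had a peak 7.2 kb before the gene in activated replicate 2 only (chromosome 19, 18378820 to 18379024), with 4.42 tags (22 reads, interval 2.77 to 6.69 tags) at a fold of 4.78 over background. Just outside the window, 21.0 kb before GDF15 and inside its neighbour PGPEP1, an ATF4 region had 10.8 and 16.3 tags in activated replicates 1 and 2, against 7.59 and 4.97 tags in control replicates 1 and 2. ADM2 had no ATF4 peak within its window, and the nearest, in control replicate 1 alone (5.36 tags), lay 97.7 kb away.

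MYC had a region in both libraries at 3 of the 6 genes, GDF15, VEGFA and ADM2, and all 3 also had one within 10 kb. Among all coding genes 25.2% had such a region within 10 kb and 64.9% within 150 kb. The ADM2 region lay inside the gene (chromosome 22, 50485417 to 50485625), 1338 bp from MIOX, and had 9.03 and 11.0 tags in replicates 1 and 2. The GDF15 region lay 5.6 kb before the gene (chromosome 19, 18380416 to 18380618), with 8.08 and 10.6 tags. It was 1392 bp from the ATF4 peak of activated replicate 2. These regions ranked 1722 and 2024 of the 6313 MYC regions with a peak in both libraries, whose median was 7.54 tags. Just beyond 10 kb, further MYC regions of both libraries lay 11.3 kb from ADM2 inside SBF1 (6.65 and 16.2 tags) and 11.7 kb from GDF15 (6.18 and 11.6 tags). The second of these was nearer to PGPEP1, at 4512 bp.

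VEGFA had 11 MYC regions in its window, 4 of them in both libraries. The one nearest the gene, 517 bp before its span (chromosome 6, 43769606 to 43769782), had 4.28 and 6.19 tags in replicates 1 and 2, and its rank was 5392 of 6313. Another, inside GTPBP2 and MAD2L1BP and 139.9 kb before VEGFA, had 6.18 and 8.18 tags. After the gene, regions at 101.1 and 140.8 kb had 4.28 and 6.79 tags and 5.7 and 10.4 tags. The other 7 regions had a peak in replicate 2 only, with 3.99 to 6.59 tags. Replicate 2 was above replicate 1 in all 6 MYC regions of the 3 genes, by 1.22 to 1.82 times. Over all 6313 regions the median of that ratio was 1.39, so values of the MYC libraries differ with the replicate number. Replicate 2 is also the deeper library and the one with the wider peaks. The part of depth or of peak width in this was not tested.

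At none of the 6 genes did an ATF4 region of both activated libraries overlap a MYC region of both libraries, where 0.304% of coding genes had such a pair within 10 kb and 1.46% within 150 kb. With the MYC peaks of replicate 2 alone, 2 genes had an overlap, FGF21 and VEGFA. At the VEGFA region before the gene the MYC peak of replicate 2 had 6.59 tags, and the centres of the ATF4 and MYC regions were 6.5 bp apart. At the VEGFA region after the gene, MYC had 5.7 and 10.4 tags in a region of its own, 153 bp from the edge of the ATF4 region. Of the 4 common ATF4 regions 2 thus overlapped a MYC region of either kind, beside 60 of all 105 (57.1%), and 0 overlapped one of both MYC libraries, beside 26 of 105 (24.8%).

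Receptors, related ligands and processing enzymes of the same pathways were then counted within 10 kb. An ATF4 region in both libraries of a group lay at 0 of 21 receptors and co-receptors, 0 of 16 family ligands and 0 of 7 genes of release and processing, beside 1.4% of coding genes in activated and 0.524% in control cells. A MYC region in both libraries lay at 9 of the 21 receptors and co-receptors, 5 of the 16 ligands and 3 of the 7 processing genes, that is 42.9%, 31.2% and 42.9%, beside 25.2% of all coding genes. These lists were not matched on gene length, and long genes have more room for a peak.

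Among the receptors, EGFR, which binds AREG and EREG, had a MYC region inside the gene with 7.13 and 18.4 tags in replicates 1 and 2. ERBB3 of the same family had regions with 8.56 and 13.4 tags and 5.23 and 6.39 tags, both nearer to PA2G4, and ERBB2 had 7.13 and 4.79 tags inside the gene. FLT1, a VEGF receptor, had 3, with the strongest at 18.5 and 24.7 tags, which was nearer to PAN3, and NRP1, a VEGF co-receptor, had 2 inside the gene, with 5.7 and 6.39 tags and 5.7 and 6.79 tags. KLB, which FGF21 needs, was counted only for a region inside RPL9, a ribosomal protein gene, 7.2 kb away, with 16.2 and 22.2 tags. FGFR2 had 10.5 and 14.6 tags inside the gene, RAMP1 4.28 and 5.59 tags at 8.7 kb and RAMP3 6.65 and 5.39 tags at 2.9 kb. GFRAL and RET, the receptor of GDF15, had no MYC region in both libraries.

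Among the ligands, TGFA, which shares the EGF receptor with AREG and EREG, had 2 MYC regions inside the gene, with 14.3 and 11.0 tags and 10.5 and 9.78 tags in replicates 1 and 2. HBEGF of that family had 7.61 and 7.18 tags at 1.7 kb, and EPGN, which lies beside EREG, had 5.7 and 4.99 tags at 5.0 kb. PGF, a relative of VEGFA, had 5.23 and 5.19 tags at 1.5 kb, and ADM, the relative of ADM2, had 4.75 and 5.79 tags at 2.1 kb. Of the processing genes, the protease gene ADAM10 had 5.23 and 5.99 tags inside the gene, and the protease gene FURIN 8.56 and 11.2 tags at 8.0 kb. RHBDF2, an iRhom partner of ADAM17, had 6.18 and 12.4 tags at 5.2 kb.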

How the data were processed

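The members, gene lists and windows were chosen with earlier results of these data known. Peaks were called per library with HOMER after alignment with Bowtie 0.12.9 to hg38, per the submitters' processing notes, with settings not given in the sources used here. Per the file headers, the authors' normalized tag count is a signal per 10 M tags of the library. Other deposited columns are, per the file headers, a score, a fraction (focus ratio), total tags (a count in replicate 1 lists, a scaled signal in replicate 2 lists), the fold over a background library not named there, and a p-value. The authors' folds describe peaks within a list only. Depth came from the steps between low values, and reads per peak from depth and tags. Intervals are exact Poisson at 95%. Fits used limma 3.58.1 with a trend (R 4.3.3) on log2(tags + 1) over regions common to the 4 ATF4 libraries. They had no replicate block and used Benjamini-Hochberg adjustment. The fits were also run on simulated data with changes in both directions, larger than any difference seen here. That run does not bear on a small shift shared by most regions. Total tags are scaled in replicate 2 lists, so a count test was not the main test. Whole reads came back from tags and depth for 98.0% to 100% of the values under 10 tags, within the rounding of the tags, and edgeR 4.0.16 was run on them as an alternative chosen after seeing the data. Gene spans and promoters are RefSeq's (GRCh38.p14). All members were named. Of the pathway genes, those with a region in both libraries of a group were named, with GFRAL and RET chosen after their values were seen. Nearest regions by distance were named, 3 per common region. Samples were grouped by title.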

Additional observations from a re-analysis of the deposited data

How the results depend on the processing

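With a window of 5 kb for all genes, 1 gene (FGF21) had an ATF4 region in both activated and 1 in both control libraries, against 3 and 3. With 1 MYC library left out, 3 to 5 genes had a MYC region and 0 to 2 an overlap of ATF4 and MYC, the higher values coming without MYC replicate 1, where the deeper list alone defined the group. The other windows, peaks of at least 4-fold over background or of at least 5 tags, any overlap with the window and a larger overlap as shared kept these counts within 1.5 times. Over the 105 common regions limma called 39 higher and 0 lower (57 and 0 at an unadjusted p under 0.05). Sites without a peak in every ATF4 library were not in these fits. Centring each library gave 0 higher and 9 lower (2 and 18 unadjusted). The replicate block gave 0 higher and 0 lower (37 and 0 unadjusted, smallest adjusted p 0.115), and leaving out each library gave 0 to 0 higher, with 24 to 47 unadjusted. On recovered reads edgeR, added after seeing the data, gave 52 higher and 0 lower, and 35 and 0 with the replicate block. The limma fits with the block or with a library left out had fewer degrees of freedom than the main fit. Their 0 calls do not by themselves show a smaller difference. In every group replicate 1 is the shallower and replicate 2 the deeper library. Deviations of same-numbered ATF4 libraries from their group means correlated at 0.10 across the 105 common regions. There were 2 pairs of libraries, too few to show whether the numbers pair samples. The differences at the 4 regions kept their sign in every alternative, and centring aside moved beyond the replicate SD only at the VEGFA region before the gene, to 0.81 with a pseudocount of 2 and 0.99 with edgeR. The centring gave 0.38 at FGF21, 0.38 and 0.25 at VEGFA after and before the gene and 0.13 at EREG. The cause was not tested. At the depth of replicate 1, sites under 3.21 to 4.46 tags are not listed.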

Other observations

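FGF21 was one of 15 coding promoters of 300 bases, each from the RefSeq table, that shared at least 1 bp with an ATF4 region of both activated libraries. Motifs were searched over the whole promoter, so a match need not lie within the region. Of these, 9 (60%) held the core TGATGCAA on either strand, beside 0.669% of all 15843. They were those of CHAC1, FGF21, FUT1, IARS1, MARS1, NARS1, PLEKHH3, PPP1R15B and TBL1X, and FGF21 and FUT1 share their match and their region. IARS1, MARS1 and NARS1 are aminoacyl-tRNA synthetases, which load amino acids onto tRNA, and PPP1R15B is a regulatory subunit of the eIF2alpha phosphatase. By the same rule 725 promoters shared at least 1 bp with a MYC region of both libraries. Of these, 5 (0.69%) held that core and 159 (21.9%) held the E-box CACGTG, beside 8.88% of all promoters. These shares describe the table's promoters and were not tested.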
